A study of Mus musculus with 60 samples.

Results

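Far distal H3K27me3 peaks were defined as intergenic peaks that lay more than 100 kb from the start site of the nearest assigned gene and were narrower than 20 kb. The 6 H3K27me3 peak lists of the study held 100414 peaks, of which 16980 met this definition (far distal peaks). Merging far distal peaks that overlapped by at least 1 bp gave 5546 far distal regions. Merging all H3K27me3 peaks in the same way gave 27261 regions, and the 12 lists of both marks held 256375 peaks. Distal intergenic peaks under 20 kb wide at 100 kb or less from a start site (27868 nearer distal peaks, 9625 regions) were used as the reference.

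H3K27me3 is the trimethylated form of lysine 27 of histone H3. It is placed by the Polycomb repressive complex PRC2 and is found at silent developmental genes, where it can spread into broad domains that also cover intergenic DNA. In neurons, such domains keep genes of other lineages silent, and CpG-rich DNA is a known place of PRC2 recruitment.

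The data came from CUT&RUN-seq, in which an antibody directs a nuclease to cut and release the DNA around a histone mark inside isolated nuclei. Nuclei were from the hippocampus of male Emx1-NuTRAP mice, in which Emx1-Cre switches on the tag used to purify nuclei, so that mostly excitatory neurons are sampled. Exercised mice could run on a wheel from postnatal day 21 to 41, sedentary mice had standard cages over the same days, and tissue was taken the day after. Nuclei were taken either from both hippocampi in a joint protocol with RNA (SIT) or, without RNA, from a left or a right hippocampus, with different mice for each side (left separate and right separate), and these 3 isolations are called arms here. By the labels, SIT had 4 samples per condition and the separate arms 3, but each condition and arm has 1 pooled list with no counts, so the depth is unknown and there is no error between mice. The paper left animals of the joint protocol out after RNA checks and gives for its SIT data fewer mice than the labels do, and fewer sedentary than exercised ones.

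The labelled cell type was compared with promoter peaks at marker genes, by the files' own gene assignment, which can give a wide peak to a neighbouring gene. Between 3 and 5 of 8 excitatory neuron genes had an H4K8ac promoter peak in each H4K8ac list, and 0 of 6 interneuron genes did. In the H3K27me3 lists, 1 to 2 of the 8 excitatory genes and 3 to 5 of the 6 interneuron genes had a promoter peak. Markers of glial and vascular cells were checked in the same way. H4K8ac promoter peaks were found at 0 to 3 of 5 astrocyte, 1 to 2 of 5 oligodendrocyte, 1 to 2 of 5 microglial and 0 of 4 endothelial genes per list. H3K27me3 promoter peaks were found at 2 to 3 of the astrocyte, 1 to 2 of the oligodendrocyte, 1 to 2 of the microglial and 2 of the endothelial genes. Depth could not be compared between lists, whose lengths ran from 9899 to 25693 H3K27me3 peaks.

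The label of these peaks as far from genes depended on which genes were counted. The files give the distance to the nearest start site with a gene identifier, and 94.99% of the regions (5268) were over 100 kb from the start site of any GENCODE M21 transcript with an Entrez identifier. Against protein-coding start sites the share was 96.6% (5355), with a median distance of 237716 bp. Against the start sites of all annotated transcripts only 24.8% (1374) remained over 100 kb away, and the median distance was 45831 bp. Of the 4172 regions with any start site within 100 kb, the nearest was a processed pseudogene for 36.8%, a lincRNA for 30.6% and a protein-coding gene for 2.61%. The regions were therefore far from protein-coding genes, and most were not far from every annotated transcript.

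Sequences are shown for 5 of the 6 regions with most CpG dinucleotides among those that had a peak in all 6 lists, ranked over the chromosomes whose sequence is shown here, because CpG-rich DNA is where PRC2 is known to be recruited. Each is the 300 bases of its region with most CpG, on the plus strand of GRCm38, in lower case with every CpG in capitals. Regions are named by the gene the files assign. No annotated transcript overlapped any of the 5.
Sox1ot region: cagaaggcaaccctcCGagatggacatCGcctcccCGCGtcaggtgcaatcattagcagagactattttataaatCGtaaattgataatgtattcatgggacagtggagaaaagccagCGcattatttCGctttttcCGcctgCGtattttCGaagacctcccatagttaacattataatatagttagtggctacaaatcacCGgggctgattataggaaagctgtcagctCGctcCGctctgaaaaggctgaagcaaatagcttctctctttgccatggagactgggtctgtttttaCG
Adgrl2 region: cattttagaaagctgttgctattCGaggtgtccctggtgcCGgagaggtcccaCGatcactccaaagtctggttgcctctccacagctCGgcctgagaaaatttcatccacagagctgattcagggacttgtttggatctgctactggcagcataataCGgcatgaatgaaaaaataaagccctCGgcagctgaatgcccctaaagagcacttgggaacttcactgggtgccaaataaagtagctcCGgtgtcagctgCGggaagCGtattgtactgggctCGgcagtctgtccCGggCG
Maf region: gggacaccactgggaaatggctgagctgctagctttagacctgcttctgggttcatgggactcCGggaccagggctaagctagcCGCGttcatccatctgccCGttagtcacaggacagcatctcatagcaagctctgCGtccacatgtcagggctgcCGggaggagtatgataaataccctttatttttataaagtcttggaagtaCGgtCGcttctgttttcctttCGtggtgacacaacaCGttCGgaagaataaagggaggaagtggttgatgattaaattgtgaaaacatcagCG
1700017J07Rik region: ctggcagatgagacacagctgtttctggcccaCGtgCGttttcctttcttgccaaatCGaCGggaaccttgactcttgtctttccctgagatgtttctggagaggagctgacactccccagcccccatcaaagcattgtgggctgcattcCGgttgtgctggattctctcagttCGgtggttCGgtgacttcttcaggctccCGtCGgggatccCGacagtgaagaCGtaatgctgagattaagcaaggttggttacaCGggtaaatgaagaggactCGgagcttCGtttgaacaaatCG
Sall1 region: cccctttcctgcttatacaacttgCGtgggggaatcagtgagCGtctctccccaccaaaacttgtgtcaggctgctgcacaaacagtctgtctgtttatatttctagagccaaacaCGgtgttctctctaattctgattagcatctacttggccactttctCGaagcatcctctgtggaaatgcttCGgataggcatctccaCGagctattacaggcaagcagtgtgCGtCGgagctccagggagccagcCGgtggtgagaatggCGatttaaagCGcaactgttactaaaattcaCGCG

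The Sox1ot window is chr8:12165590-12165889 and held 14 CpG, and its region was 48776 bp wide with 680 CpG, the most of the 5. The Adgrl2 window is chr3:149190883-149191182 with 12 CpG, and the Maf window is chr8:115536807-115537106 with 12. The 1700017J07Rik window is chr2:169170783-169171082 with 15 CpG, and the Sall1 window is chr8:89317607-89317906 with 13. The GC content of the 5 windows lay between 45.0 and 52.3%, and their observed to expected CpG ratio between 0.585 and 0.922. Sox1ot is a noncoding transcript at the locus of Sox1, a neural progenitor transcription factor. The region named for Sox1ot lay 205.0 kb from the assigned start site but 98.0 kb from that of the protein-coding A230072I06Rik, a case of the limit on the assigned distance. H4K8ac peaks overlapped it in 3 of the 6 H4K8ac lists and overlapped the other 4 regions in 0.

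Far distal peaks accounted for 15.2 to 17.9% of each H3K27me3 list. There were 4587 in the exercised and 1584 in the sedentary SIT list (exercised to sedentary ratio 2.90). The left separate lists gave 3141 and 2466 (ratio 1.27), and the right separate lists 1509 and 3693 (ratio 0.409). The number was thus higher in the exercised list of the SIT and left separate arms and lower in that of the right separate arm. The ratio of all H3K27me3 peaks was 2.50, 1.26 and 0.454 in the same order, and that of nearer distal peaks 2.84, 1.30 and 0.443, so that the far distal number moved with the length of the list. By the paper's account the SIT lists come from unequal numbers of mice, with more exercised ones, and the part of this in the SIT ratio was not tested. The geometric mean of the far distal ratio over the 3 arms was 1.15, without the SIT arm it was 0.721, and without the right separate arm 1.92. With equal numbers of the widest peaks taken from both lists of an arm, the far distal ratios were 1.02 in SIT, 0.983 in left separate and 1.04 in right separate.

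**Figure D1:**
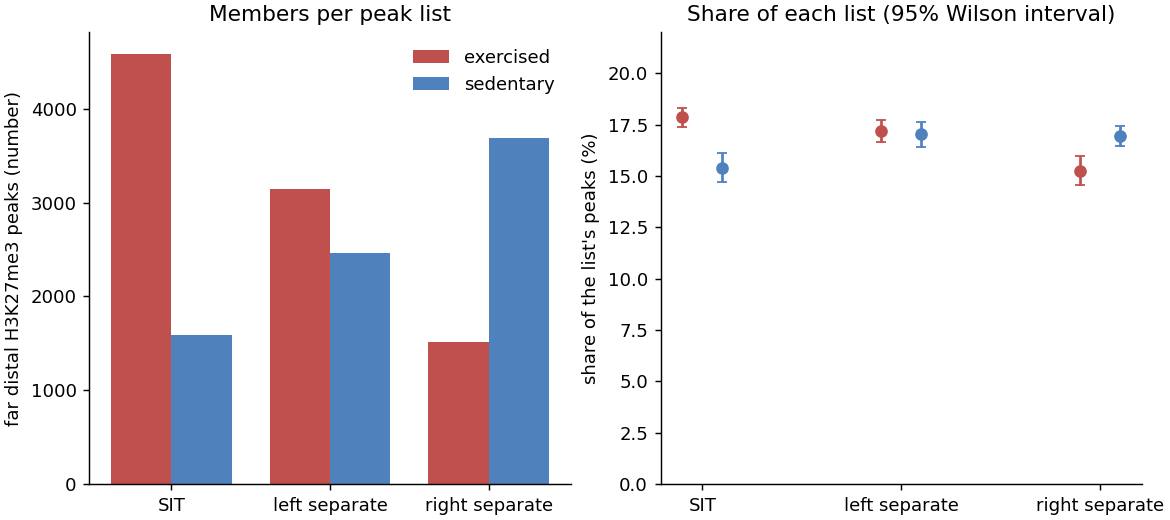
Left, number of far distal H3K27me3 peaks in the exercised and sedentary list of each arm (bars from 0). Right, their share of all H3K27me3 peaks of the list in percent, with 95% Wilson intervals for counting error. The numbers run from 1509 to 4587 with opposite orders in the SIT and right separate arms, while the shares stay between 15.2 and 17.9%.

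As a share of the list, far distal peaks were 17.9% of exercised SIT peaks (95% Wilson interval 17.4 to 18.3%) and 15.4% of sedentary SIT peaks (14.7 to 16.1%). They were 17.2% (16.7 to 17.8%) of exercised and 17.0% (16.4 to 17.6%) of sedentary left separate peaks, and 15.2% (14.6 to 16.0%) and 16.9% (16.5 to 17.4%) of the right separate peaks. These intervals cover counting error over peaks only. The difference between exercised and sedentary lists was 2.44 percentage points for SIT, 0.182 for left separate and −1.70 for right separate. The mean was 0.307 ± 2.08 points (SD, n = 3 arms), and the exact sign-flip permutation test over arms (two-sided) gave p = 0.75 (adjusted p = 0.75 over 5 tests, Benjamini-Hochberg), where 3 arms can reach no less than 0.25. Without the SIT arm the mean was −0.761 points, and without the right separate arm it was 1.31 points. With both lists of an arm cut to the same length by width, the left separate and right separate differences changed sign, to −0.297 and 0.535 points, and the SIT difference fell to 0.370.

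The peaks were mid-sized and lay at similar distances in all lists. Their median distance to the assigned start site was between 205242 and 212154 bp in the 6 lists, and between 51.5 and 53.4% of them were over 200 kb away. The most distant peak of a list lay between 1209531 and 1655265 bp from its assigned start site. Between 46.6 and 50.3% lay upstream of the assigned gene, so neither side of genes was preferred by more than a few points. The median width was 2863 bp in exercised SIT, 3878.5 bp in sedentary SIT, 2882 and 3092 bp in exercised and sedentary left separate, and 2686 and 2821 bp in exercised and sedentary right separate. The sedentary SIT list stood above the other 5, and the exercised median was the lower in all 3 arms. Nearer distal peaks of the sedentary SIT list were wide too, with a median of 3882 bp against 2573 to 3057.5 bp in the other 5 lists.

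Within lists, the widths of far distal and nearer distal peaks were compared, both of them cut at the 20 kb limit of the definition. The median of the far distal peaks was 45.2 ± 56.1 bp wider (SD, n = 6 lists), with 4 lists above 0 and 2 below. The exact two-sided sign-flip permutation test gave p = 0.125 (adjusted p = 0.156). The difference was 86.6 bp at a distance limit of 50 kb, with 6 of 6 lists above 0 (adjusted p = 0.052, exact test). Without the width limit it was 61.5 bp, also with 6 of 6 lists above 0 (adjusted p = 0.052, exact test). It was 23.6 bp at 200 kb and −3.50 bp with distances to any annotated start site. The closest peak inside the distance limit lay 100005 bp from the start site of Iars, a tRNA synthetase gene, and the closest outside it 99981 bp from that of 4931429L15Rik. The widest peak inside the width limit was 19991 bp, near Gm11217, and the narrowest outside it 20040 bp, near Rasgrp1, a Ras activator. A total of 300 distal intergenic peaks beyond 100 kb were left out for their width, the widest of them 126273 bp.

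Presence across lists was described next. A region was counted in a list if any H3K27me3 peak of that list overlapped it by at least 1 bp. Of the 5546 regions, 862 had a peak in all 6 lists (15.5%, 95% Wilson interval 14.6 to 16.5%), against 16.7% of all merged H3K27me3 regions and 17.96% of nearer distal regions (17.2 to 18.7%). With an overlap of at least 50% of the region in place of 1 bp, 339 regions (6.11%) had a peak in all 6 lists. In 531 regions a far distal peak itself was present in all 6 lists. At the other end, 2075 regions (37.4%) were in 1 list, against 37.5% of all regions and 33.1% of nearer distal regions. Both shares were thus close to those of all H3K27me3 regions, while nearer distal regions were less often in 1 list and more often in 6.

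The lists contributed unequally. The exercised SIT list covered 82.0% of the far distal regions, sedentary right separate 61.9%, exercised left separate 50.9%, sedentary left separate 38.2%, sedentary SIT 29.2% and exercised right separate 21.3%. This order was that of list length. Of the regions in 1 list, 60.7% (1259) were in exercised SIT, 21.5% (447) in sedentary right separate and 12.7% (264) in exercised left separate. The sedentary SIT list held 5 regions of its own, assigned to Chd7, Ptn, 6820431F20Rik, Gm20745 and C1d, which are named here because their number was small. Of the 523 regions in 5 lists, 383 lacked a peak in the exercised right separate list and 82 in the sedentary SIT list.

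Width rose with presence. Regions in 1 list had a median width of 2188 bp, those in 3 lists 4324 bp and those in 6 lists 10480.5 bp. A wider region can be met by more lists, and a region merged from more lists can be wider, so these cannot be told apart here. Peaks of 20 kb or wider overlapped 306 of the 862 regions in 6 lists (35.5%) and 408 of all 5546 (7.36%).

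**Figure D2:**
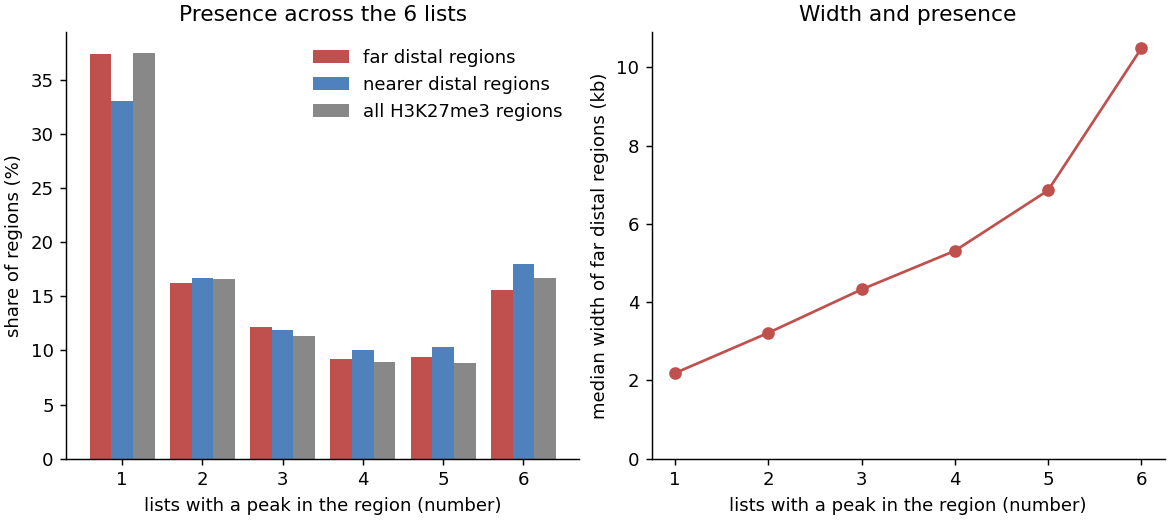
Left, share of merged regions in percent by the number of H3K27me3 lists with a peak in the region, for far distal, nearer distal and all H3K27me3 regions. Right, median width of far distal regions in kb by the same number. The 3 sets have similar profiles, with 15.5, 17.96 and 16.7% in all 6 lists, and the width runs from 2188 bp in 1 list to 10480.5 bp in 6.

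Within each arm, most peaks of the shorter list were met by the longer one, and many of the longer were not met. Of the far distal peaks of exercised SIT, 69.4% (3185) met no sedentary SIT peak, against 62.8% of all exercised SIT peaks. Of those of sedentary SIT, 2.27% (36) met no exercised SIT peak, against 1.92% of all. In the left separate arm, 43.9% (1379) of exercised and 21.2% (524) of sedentary far distal peaks were alone, against 38.6 and 17.9% of all peaks. In the right separate arm, 6.03% (91) of exercised and 75.1% (2773) of sedentary far distal peaks were alone, against 5.34 and 68.4% of all peaks. The shares of far distal peaks alone were above those of all peaks in 6 of 6 lists. All peaks include those of 20 kb or wider, which the definition takes out of far distal peaks. The part of width in this difference was not tested, and the 2 lists of an arm are linked.

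Compared with nearer distal peaks of the same list, the share of far distal peaks that met the other condition differed by −0.918 ± 1.05 points (SD, n = 6 lists), with 5 of 6 lists below 0. Flipping signs over lists, the exact permutation test (two-sided) gave p = 0.125 (adjusted p = 0.156). The 2 lists of an arm are the 2 directions of the same comparison, however, so the 6 values come from 3 arms and this p is too small. Over the 3 arm means, 3 of 3 were below 0, and the exact test gave p = 0.25, the smallest that 3 arms allow. With a distance limit of 50 kb the difference turned to 0.270 points, with 4 of 6 lists above 0. It was −1.805 points with an overlap of at least 50% of the peak (0 of 6 lists above 0, adjusted p = 0.052 by the same exact test over linked lists), −1.90 with distances to any annotated start site and −0.427 without the left separate arm.

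Peaks alone in 1 condition were narrower than those with a partner in 6 of 6 lists. A partner needed only 1 bp of overlap, so a wider peak has more room to meet one, and the measure itself favours this direction. In exercised SIT, the median width was 2412 bp for far distal peaks without a sedentary partner and 5453.5 bp for those with one. In sedentary SIT, where 36 peaks were alone, the medians were 3339 and 3913 bp. They were 2461 and 3815 bp in exercised and 2519 and 3437.5 bp in sedentary left separate. In the right separate arm they were 1854 and 2761.5 bp in exercised and 2502 and 5351.5 bp in sedentary. The gap was thus widest in the longest list of all and in the longer right separate list.

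Between arms, long lists also met more peaks of short lists than the reverse. The exercised SIT list met 97.2% of exercised right separate peaks, and the exercised right separate list met 19.2% of exercised SIT peaks. The sedentary right separate list met 94.4% of sedentary SIT peaks, and the sedentary SIT list met 40.8% of sedentary right separate peaks.

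Regions that separated the conditions in all arms were few. Only 7 far distal regions (0.126%) had a peak in all 3 exercised lists and in 0 sedentary lists, against 0.125% of all merged regions (34). They were assigned to Ddx18, Vapb, Gm12018 (2 regions), Meis1, Gm17746 and Sntb1, and their widths lay between 2257 and 7052 bp. Meis1 encodes a homeobox transcription factor and Vapb a membrane contact protein of the endoplasmic reticulum. The reverse pattern was found in 1 region (0.018%), on chromosome 18 near 4921531P14Rik, against 0.033% of all regions (9). Both shares were near the background, and these regions were named after their values were seen.

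Far distal regions were not spread evenly over chromosomes. To allow for how much of each chromosome could hold such a region, counts were divided by far sequence, the bases over 100 kb from every start site with an Entrez identifier, outside all transcripts and without gaps. Far sequence came to 704.4 Mb, and the regions amounted to 7.87 per Mb of it. Chromosome 11 had 16.9 regions per Mb, chromosome 2 had 16.7, chromosome 7 had 14.3 and chromosome 8 had 14.2. The lowest autosomes were chromosome 16 with 3.77 and chromosome 17 with 4.34. Chromosome 2 held most regions (613, or 11.1%, on 5.22% of the far sequence), of which 122 were in all 6 lists.

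The order of chromosomes was similar from list to list. Chromosomes 2, 8 and 11 took the first 3 places per Mb of far sequence in each of the 6 lists, and the last autosome was 16 or 17 in each. Peaks per Mb on the first chromosome of a list lay between 5.40 and 14.9, against an autosomal median between 1.97 and 5.93. The lists overlap in regions, so that they are not independent on this point. The first places were not particular to far distal peaks. H3K27me3 regions of any kind were also most frequent on these chromosomes, with 14.9 per Mb of length on chromosome 11, 14.0 on 8 and 13.5 on 2. Chromosome 16 was the lowest autosome by that count (7.64), while chromosome 17 was not low (11.9). On chromosome 2, the lists held 528 far distal peaks in exercised SIT, 211 in sedentary SIT, 392 and 299 in exercised and sedentary left separate, and 180 and 471 in exercised and sedentary right separate.

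The X chromosome was almost empty. It held 27 far distal regions on 54.8 Mb of far sequence, or 0.493 per Mb, and between 1 and 23 far distal peaks per list. The X was not low for these peaks alone, since it had 0.930 H3K27me3 regions of any kind per Mb of its length against 13.5 on chromosome 2. It was low in H4K8ac too, with 0.694 far distal H4K8ac regions per Mb against 10.9 over the genome. Repeat-masked bases made up a median of 49.1% of 3 kb tiles of far sequence on the X and 31.2% on autosomes, and the part of this difference was not tested. The Y chromosome held 0 regions.

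The chromosomes rich in far distal H3K27me3 were not always those rich in far distal H4K8ac, taken by the same rule. Chromosome 7 had 14.3 H3K27me3 and 6.11 H4K8ac regions per Mb, and chromosome 1 had 5.63 and 13.4. Chromosome 2 was high for both, with 16.7 and 17.8. The median GC content of 3 kb tiles of far sequence was 40.6% on chromosome 7, the highest of all chromosomes, 38.7% on chromosome 1 and 38.9% on chromosome 2, in a range from 37.97 to 40.6%. The part of GC content in these counts was not tested.

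**Figure D3:**
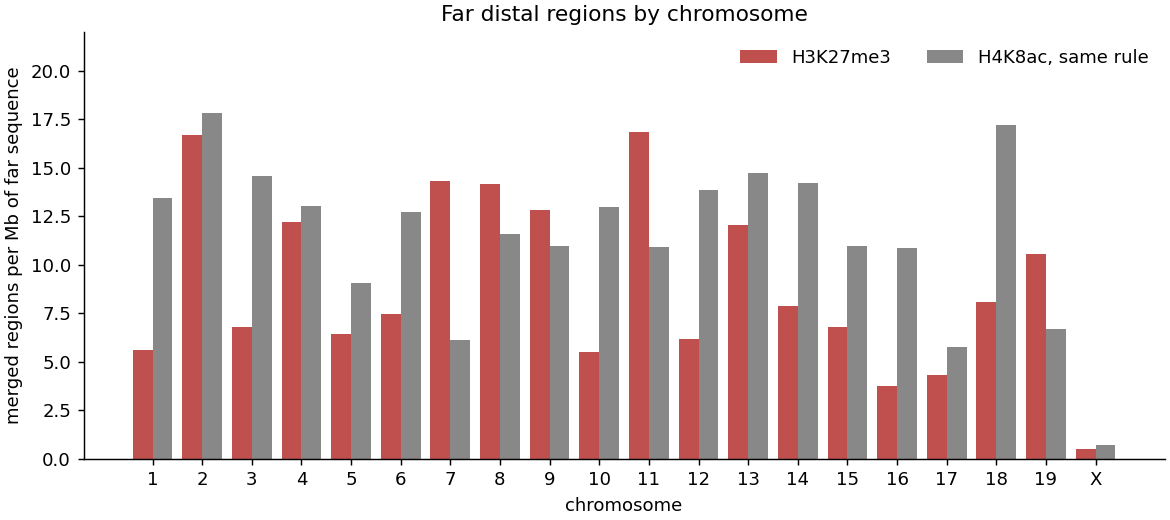
Merged far distal regions per Mb of far sequence on each chromosome, for H3K27me3 and for H4K8ac peaks chosen by the same rule (bars from 0, the Y left out). H3K27me3 runs from 0.493 on the X to 16.9 on chromosome 11, and chromosomes 1 and 7 have opposite orders of the marks.

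Regions were clustered. The gap between neighbouring regions of a chromosome had a median of 6709 bp, and 56.6% of the gaps were 10 kb or shorter, while 8.70% were longer than 1 Mb. Between the start sites of protein-coding genes, 704 intervals held at least 1 region, and 169 of them held 10 or more, together 68.6% of all regions. Long intervals without regions were common too. Of 298 autosomal intervals over 1 Mb between such start sites, 103 (34.6%) held 0 regions, 73 held 10 or more and the fullest held 89. A long interval without a coding start site was therefore not by itself rich in far distal H3K27me3. Such intervals include gene bodies, where no distal intergenic peak can lie, so the counts do not describe long DNA without genes. On the X, 22 of 24 such intervals held 0.

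The stretch with most regions ran from Ddx18, an RNA helicase gene, to Dpp10, which encodes an auxiliary subunit of neuronal potassium channels (chr1:121567989-123650360, 2082.4 kb, GRCm38). It held 89 regions, of which 12 were in all 6 lists and 41 in 1 list. The lists held 83 far distal peaks here in exercised SIT, 22 in sedentary SIT, 47 and 43 in exercised and sedentary left separate, and 29 and 45 in exercised and sedentary right separate. H3K27me3 peaks of any kind covered between 6.81 and 25.5% of it.

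The stretch from Dok5 to Cbln4 (chr2:170731807-172043466, 1311.7 kb) held 85 regions, 22 of them in all 6 lists. Dok5 encodes a docking protein of receptor tyrosine kinases and Cbln4 a secreted synaptic organizer. Peaks covered 48.9% of it in exercised SIT, 28.2% in sedentary SIT, 31.3 and 21.7% in exercised and sedentary left separate, and 10.3 and 45.8% in exercised and sedentary right separate. The longer list of each arm covered the larger part.

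The stretch from Sall1 to Tox3 (chr8:89044162-90348126, 1304 kb) held 65 regions and had most regions in all 6 lists (27). Sall1 and Tox3 encode transcription factors with zinc fingers and an HMG box, respectively. Peaks covered 48.6% of it in exercised SIT, 36.8% in sedentary SIT, 38.9 and 30.6% in exercised and sedentary left separate, and 19.3 and 44.4% in exercised and sedentary right separate. Between 0 and 9 H4K8ac peaks lay in it per list. Several of its blocks were 20 kb or wider in 1 list and broken into narrower peaks in another, so the same domain counted as a single wide peak or as a run of far distal peaks.

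**Figure D4:**
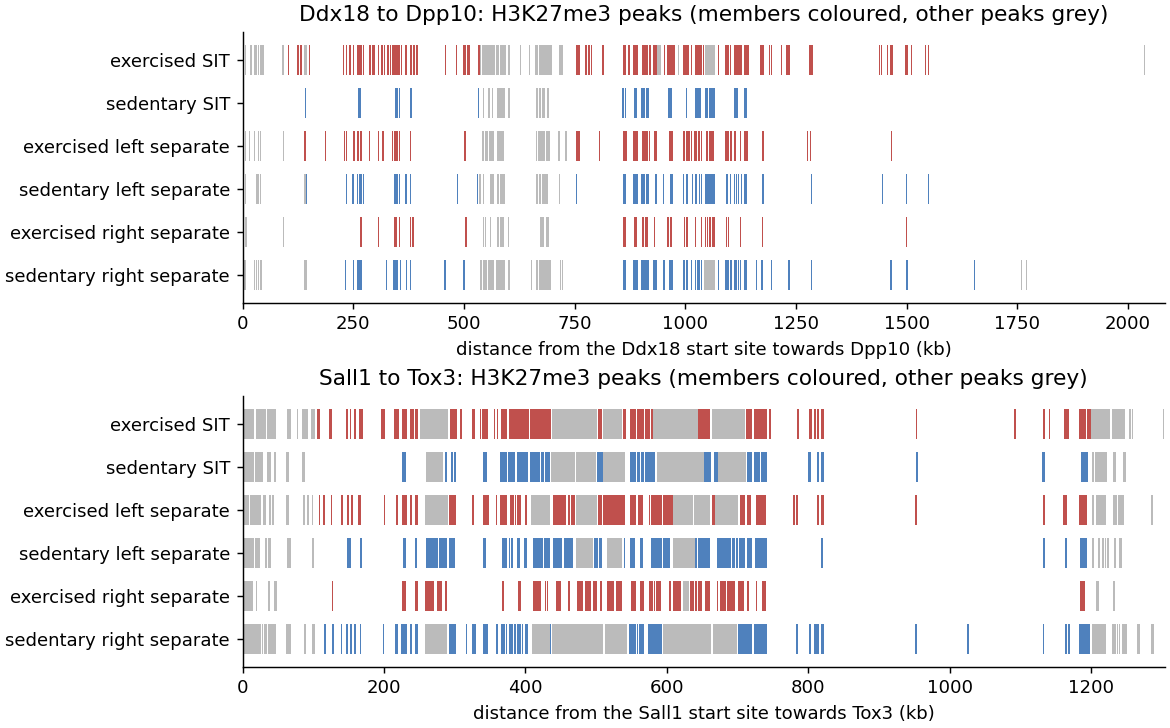
H3K27me3 peaks of the 6 lists in the stretch with most far distal regions (Ddx18 to Dpp10) and the one with most regions in all 6 lists (Sall1 to Tox3), by distance in kb from the start site of the first gene. Far distal peaks are coloured (red, exercised, blue, sedentary) and other H3K27me3 peaks, wider or nearer, are grey. The same blocks recur from list to list, with 12 and 27 regions in all 6 lists in the first and the second stretch.

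The other stretches of the first 6 were Ttll7 to Adgrl2 on chromosome 3 (75 regions), Dhx35 to Gm826 on chromosome 2 (67) and Cdh26 to Cdh4, a pair of cadherin genes, on chromosome 2 (63). When the start sites of all transcripts bounded the stretches, 1454 intervals held regions, and 136 held 10 or more. The first was then Gm26489 to 1700028P15Rik (chr2:171306431-171962131, 49 regions), which lies within Dok5 to Cbln4. The second was Gm5356 to Gm26331 (chr8:89187560-89589541, 33 regions), within Sall1 to Tox3, and the regions covered 70.3% of it. The third was 4930405D11Rik to Kif2b on chromosome 11 (32 regions), followed with 31 regions each by Gm24550 to Gm28078 on chromosome 7, Cdh26 to Gm14314 on chromosome 2 and Gm35736 to Gm5110 on chromosome 6. The last of these was 1026.1 kb long and had 12 regions in all 6 lists.

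The files assigned the regions to 1026 genes, and 20 regions had no gene symbol. A total of 162 genes had 10 or more regions, together 52.9% of all regions, and 290 genes had 1. The 12 genes with most regions held 10.4%. An assigned gene is the nearest by start site, which says nothing of what a region regulates.

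Among the 12, several encode transcription factors. Tshz3, a teashirt zinc finger gene, had 61 regions up to 430.6 kb away, of which 3 were in all lists and 33 in 1. Sall1 had 44 regions with 20 in all lists, Maf, a basic leucine zipper gene, 44 with 13, and Klf4, a factor of pluripotency and epithelial cells, 32 with 6. The lists held 33 Sall1 far distal peaks in exercised SIT, 18 in sedentary SIT, 38 and 29 in exercised and sedentary left separate, and 32 in each right separate list. For Sall1 the 2 right separate lists had equal numbers although the sedentary list was the longer. Blocks of 20 kb or wider do not count, and the sedentary right separate list had several between Sall1 and Tox3. Peaks covered 44.4% of that stretch in this list and 19.3% in exercised right separate, so equal numbers did not mean equal coverage. For Tshz3 the numbers were 56, 10, 29, 16, 7 and 30 in the same order, with the longer list of each arm ahead.

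Adgrl2, the gene of latrophilin-2, an adhesion receptor at synapses, had more regions than any other gene (96, between 100.9 and 960.3 kb away, 14 in all lists). Its far distal peaks numbered 76 in exercised SIT, 29 in sedentary SIT, 54 and 45 in exercised and sedentary left separate, and 29 and 67 in exercised and sedentary right separate. Ajap1, which encodes a junction-associated membrane protein, had 44 regions with 5 in all lists, and Dok5 41 with 10. Nova1, a neuronal splicing factor gene, had 36 with 5, and Rps29, a ribosomal protein gene, 35 with 8. The remaining 3 are unnamed gene models, Gm28590 with 60 regions, 1700028P15Rik with 44 and 4930591A17Rik with 38.

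The state of the genes' own start sites varied among these 12, taken by any peak within 3 kb of an annotated start site, whichever gene the files assign to the peak. Adgrl2, Tshz3, Maf, Sall1 and 4930591A17Rik had an H3K27me3 peak there in all 6 lists and an H4K8ac peak in 0. 1700028P15Rik had H3K27me3 in 3 lists and H4K8ac in 0, and Gm28590 had neither mark in any list. Ajap1, Dok5, Nova1, Rps29 and Klf4 had H3K27me3 in 0 lists and H4K8ac in 2, 2, 3, 1 and 3 of the 6 H4K8ac lists. For Sall1, the files' own promoter class named the gene in 2 H3K27me3 lists only, since in the other 4 a wide peak over its start site is assigned to Mir8110, a microRNA gene. Far distal H3K27me3 thus lay near genes with a promoter under the same mark and near genes whose promoter carried H4K8ac peaks in some lists.

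Gene groups were compared by their share of far distal peaks. Members were taken by the start of the gene symbol, and other genes with a like role stayed outside the groups. The group of developmental transcription factors holds families such as Hox, Sox, Irx, Tshz, Sall and Zic, and leaves out Maf, Klf4 and Tox3, which had 44, 32 and 22 regions with 13, 6 and 7 in all lists. Developmental transcription factors were the assigned gene of 8.13% of far distal peaks, 5.86% of nearer distal peaks, 6.37% of all H3K27me3 peaks and 2.49% of far tiles. They took 415 regions and 43 genes, led by Tshz3, Sall1 and Irx1 (27 regions, a homeobox gene), and 21.9% of their regions (91) were in all 6 lists, against 15.5% of all far distal regions. Sall1 (20) and Tshz2 (10) gave the most among the 8 genes of the group with most regions, while Tshz3 had 3 of 61 and Zic4 and Zfp536 had 0. Their share lay between 7.39 and 10.1% in the 6 lists, so it was above that of far tiles in each.

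Guidance and synaptic adhesion genes took 3.11% of far distal peaks, 0.759% of nearer distal peaks, 1.65% of all H3K27me3 peaks and 6.06% of far tiles. Of their 175 regions, 96 belonged to Adgrl2, followed by Efna5, an ephrin gene, with 18 and the netrin receptor gene Unc5d with 16. Cadherins and protocadherins took 1.73%, against 0.651% of nearer distal peaks, 1.12% of all H3K27me3 peaks and 4.06% of far tiles, with Cdh26 (25 regions) and Cdh13 (16) first. Both groups of adhesion genes were thus below their share of the far sequence and above their share of all and of nearer distal peaks. For the guidance group this includes the 96 regions of Adgrl2, and the group was not compared without that gene. Genes beside much far sequence can also take more far than nearer distal peaks through the distance limit itself.

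Receptors and channels of neurons were rare. Glutamate and GABA receptors and ion channels took 0.519% of far distal peaks, 1.06% of nearer distal peaks, 1.395% of all H3K27me3 peaks and 2.19% of far tiles, and the potassium channel subunit gene Kcnmb2 (11 regions) led them. Chemosensory receptor genes took 0.0944% of far distal peaks in 8 regions, against 1.34% of nearer distal peaks, 1.33% of all H3K27me3 peaks and 0.403% of far tiles. Unnamed gene models took 25.6%, against 21.5% of nearer distal peaks, 17.2% of all H3K27me3 peaks and 23.7% of far tiles. These shares are descriptions with no test, since neighbouring regions share their assigned gene.

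The sequence of far distal peaks differed from that of nearer distal peaks in the same direction in all lists. Median GC content was 41.7% in exercised SIT, 42.4% in sedentary SIT, 42.3 and 41.8% in exercised and sedentary left separate, and 42.4 and 42.1% in exercised and sedentary right separate, against 43.6 to 44.1% for nearer distal peaks. The difference was −1.87 ± 0.203 percentage points (SD, n = 6 lists), lower in 6 of 6. The exact two-sided sign-flip permutation test gave p = 0.031, the smallest that 6 lists allow, and the adjusted p was 0.078, so the result missed the threshold of 0.05. The observed to expected CpG ratio was lower in 6 of 6 lists too, with a difference of −0.0148 ± 0.00215 (SD), with the same p and adjusted p by the exact test. These lists share many regions, so their agreement is not that of independent samples.

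Against the far sequence of all chromosomes, the regions were richer in GC and CpG and poorer in repeats. To compare equal lengths, the middle 3 kb of the 3158 regions of at least 3 kb were set against 226755 tiles of 3 kb of far sequence, a choice made after the data were seen. The middles had a median GC content of 42.0% and an observed to expected CpG ratio of 0.178, against 38.8% and 0.135 for the tiles. Repeat-masked bases made up 18.7% of the middles and 34.0% of the tiles. These tiles include the X and the Y, and those of autosomes alone had 31.2%. A CpG-dense window, 200 bp with at least 50% GC and a ratio of at least 0.6, was found in 15.6% of the middles (493) and in 8.63% of the tiles. Over the whole length of all 5546 regions, 19.2% (1063) held such a window. The part of read mapping within repeats in the difference in masked bases was not tested.

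CpG-dense windows were most frequent in regions present in all 6 lists. Over whole regions, 7.52% of those in 1 list and 43.2% of those in 6 lists held one, but those in 6 lists were also the wider. In the middle 3 kb of regions of at least 3 kb, the shares were 13.2% for 1 list (35 of 265, 95% Wilson interval 9.65 to 17.8%), 15.4% for 2, 14.3% for 3, 14.0% for 4, 14.2% for 5 and 19.2% for 6 lists (157 of 816, 16.7 to 22.1%). The intervals of 1 and 6 lists overlapped here, and the shares for 1 to 5 lists lay within 2.19 points of each other. Regions under 3 kb made up most of those in 1 list, 1810 of 2075, and have no place in these shares. With 3 kb windows centred on regions of any width, which reach outside the narrower ones, the shares were 11.04% (9.76 to 12.5%) for 1 list and 18.9% (16.4 to 21.7%) for 6, and these intervals did not overlap. Median GC of the middles went from 41.1 to 42.7% between 1 and 6 lists. The lists of peaks differed too, as 25.5% of the sedentary SIT far distal peaks held a window, against 16.7 to 19.3% in the other 5 lists, in which peaks were narrower. For nearer distal peaks these shares were 35.45% and 24.6 to 27.8%, so the sedentary SIT list stood above the others in both kinds of peak.

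**Figure D5:**
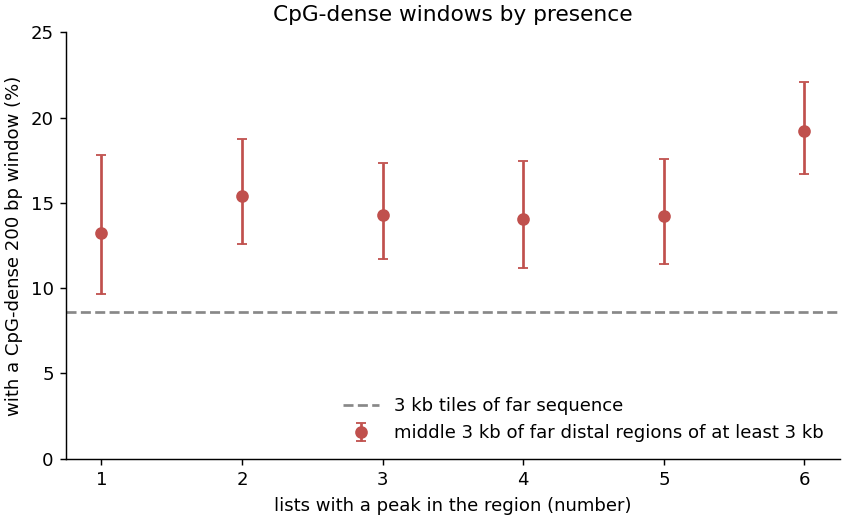
Share in percent of far distal regions of at least 3 kb whose middle 3 kb held a CpG-dense window of 200 bp, by the number of lists with a peak in the region (265 to 816 regions per point), with 95% Wilson intervals for counting error. The dashed line marks the same share over 3 kb tiles of far sequence. The share is 13.2% for regions in 1 list and 19.2% for those in 6 with overlapping intervals, and the tiles are at 8.63%.

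H4K8ac, an acetylation found at active genes, was nearly absent from far distal H3K27me3 peaks. In the list of the same condition and arm, H4K8ac peaks overlapped 0.763% of exercised SIT far distal peaks (95% Wilson interval 0.549 to 1.06%) and 0.505% of sedentary SIT (0.256 to 0.993%). The shares were 0.0637 and 0.365% in exercised and sedentary left separate, and 0.0663 and 0.325% in exercised and sedentary right separate. The paper left out exercised H4K8ac libraries with a high false discovery rate, most of them from separate isolations. The part of this in the low exercised shares of the separate arms was not tested. Over all H3K27me3 peaks they were 1.004, 0.720, 0.0876, 0.545, 0.162 and 0.583%, so far distal peaks were below all peaks in 6 of 6 lists. Over nearer distal peaks they were 0.677, 0.431, 0.0388, 0.428, 0.0728 and 0.338%, and far distal peaks were above them in 3 lists and below in 3. The low share was thus not particular to far distal peaks. The median distance to the nearest H4K8ac peak was 167290 bp in exercised SIT and 455298 bp in exercised left separate, whose H4K8ac list was the shortest.

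The most remote and the widest regions in all lists were named by rule. The 3 farthest lay side by side on chromosome 1 at 1208.6, 1198.8 and 1177.0 kb from Gm20268, and 2080.1 kb or more from any protein-coding start site. A snoRNA gene, Gm23036, was annotated between 29187 and 61582 bp from them, so they were remote from coding genes only. The farthest, chr1:102364438-102384834, was covered for 18228 bp in exercised SIT, 10784 bp in sedentary SIT, 11952 and 12834 bp in exercised and sedentary left separate, and 4801 and 12206 bp in exercised and sedentary right separate. The widest 3 were the Sox1ot region, a region of 46768 bp at 705.1 kb from Gm12911 on chromosome 4, and the Adgrl2 region of 46534 bp on chromosome 3. The Gm12911 region had a GC content of 35.8% and an observed to expected CpG ratio of 0.136, near that of far tiles, while the other 2 had ratios of 0.240. The widest regions in all lists thus differed in GC content and CpG ratio.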

How the data were processed

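CUT&RUN-seq libraries of 60 samples in 18 groups were grouped by antibody, condition and arm from their labels. Per the submitters' processing notes and the paper's methods, the authors checked reads with FastQC 0.11.9, aligned them with Bowtie2 2.4.1 to mm10, called peaks with SEACR (stringent, 0.01) and annotated them with ChIPseeker 1.8.6. They left out some exercised H4K8ac libraries with a high false discovery rate and SIT animals after RNA checks, so that the paper gives fewer mice for SIT than the labels do, and fewer sedentary than exercised ones. How libraries were pooled is not given in the sources used here. Per the file headers, the deposited lists hold each peak's position, width and distance to a start site in bp, an annotation class and a gene symbol, and no counts or signal. IgG samples were not used here.

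Overlap meant at least 1 bp. Base composition was read from GRCm38.p6 and annotation from GENCODE M21. Differences were tested over arms or lists with exact two-sided sign-flip permutation tests and Benjamini-Hochberg adjustment over 5 tests (threshold 0.05). The functions were tested on simulated data, where 20 of 20 random sets gave the same values as direct counting. The far distal peaks, gene groups and tests were chosen with earlier results of these data known. Developmental transcription factors were symbols starting with Hox, Sox, Pou, Irx, Tshz, Zfhx, Meis, Lhx, Fox, Nr2f, Tbx, Pax, Otx, Dlx, Nkx, Gata, Barhl, Satb, Bcl11, Neurog, Onecut, Zic, Emx, Lmo, Ebf, Tcf4, Mef2, Zfp536, Zfpm2, Sall, Gli, Bhlhe22, Twist or Hand and the sine oculis homeobox genes, and the other groups were set by symbol in the same way. The named genes were the 12 assigned genes with most regions, the ends of the 6 stretches with most regions, the 3 farthest and 3 widest regions in all lists, and the peaks next to each limit. Sequences were those of the first 6 regions in all lists by CpG number, chromosome 18 left out because its sequence is not shown here, of which 1 is not reported here. Alternatives were distances over 50 or 200 kb, no width limit, distance to any annotated start site, equal numbers of the widest peaks, each arm left out, overlap of 50%, merging within 1 kb and coding start sites for stretches. Software was pandas 2.3.3, scipy 1.17.1, numpy 2.4.6 and matplotlib 3.10.9 under Python 3.11.15.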

Additional observations from a re-analysis of the deposited data

Results flagged for a closer look

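The sedentary SIT list stood apart from the other 5 lists in the median width of its far distal peaks, 3878.5 bp, and in the share of them with a CpG-dense window, 25.5%. For both, its gap to the nearest other list exceeded Dixon's 95% critical value for 6 values, in 2 of 9 measures examined. The nearer distal peaks of that list were likewise above those of the other 5 lists, with a median width of 3882 bp and a share of 35.45%, so neither value is particular to far distal peaks. The 6 lists are not samples of a single group, and chance alone marks about 1 in 20 sets of values.

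The ratio of exercised to sedentary far distal peaks went in opposite directions in different arms, with values of 2.90 for SIT, 1.27 for left separate and 0.409 for right separate. The difference in their share of all peaks did so too, at 2.44, 0.182 and −1.70 percentage points. With 1 list per condition and arm, the difference between arms was not tested.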

How the results depend on the processing

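No paired analysis was possible because replicate numbers are lost in lists that pool the samples of a group, and the pairing used was that of whole lists within arms. Without the SIT arm, the mean difference in the far distal share turned to −0.761 points and the mean ratio to 0.721, while without the right separate arm they were 1.31 points and 1.92. With equal numbers of the widest peaks, the ratio became 1.02 in SIT, 0.983 in the left separate and 1.04 in the right separate arm, and the share difference turned to −0.297 points in the left and 0.535 points in the right separate arm. Meeting the other condition, relative to nearer distal peaks, turned to 0.270 points at a limit of 50 kb, and the width difference to −3.50 bp with distances to any start site. The causes were not tested.

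The share of regions in all lists was 14.5% over 200 kb, 13.8% without the width limit, 13.7% by distance to any start site, 22.9% with equal numbers, 20.8% without the SIT arm, 18.5% without the left and 23.1% without the right separate arm, and 6.11% at an overlap of 50%. With an arm left out, 4 lists stood in place of 6. GC content stayed lower in far distal peaks under 8 of 8 alternatives (−2.87 to −1.49 points), as did the CpG ratio (−0.0244 to −0.00758), and no alternative moved an adjusted p below 0.05. With 3 kb windows centred on regions of any width, which reach outside the narrower ones, 13.8% held a CpG-dense window in place of 15.6%, an alternative chosen after seeing the data. The test over 3 arm means was also chosen after seeing the data. Depth is unknown, so a peak that is not in a list may have been missed there.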
